A study of Mus musculus with 9 samples.

Results

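Nitric oxide synthases and the enzymes that compete for, rebuild or spend their substrate arginine were followed as a group of 9 genes in callus tissue on day 7 after femoral fracture: Nos1, Nos2, Nos3, Arg1, Arg2, Ass1, Asl, Slc7a2 and Odc1. They are 9 of the 22054 genes in the deposited table, each found once by its symbol. The group was chosen from measured values of these same libraries, because Nos2 had led the increases of SR-717 against H-151. Differences of all 9 genes between SR-717 and H-151, and of Nos2 between SR-717 and PBS, are therefore given as a description with no test. Nos2 between H-151 and PBS shares the H-151 libraries with that contrast, so its p-values are background only.

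The study asked how the STING pathway, which senses cytosolic DNA, acts in early fracture healing. Male mice of 7 weeks with a femoral fracture, of the strain C57BL/6J as the study's methods give it, were injected with 200 μl into the peritoneum each day for a week. The H-151 group received 750 nmol of H-151, an inhibitor of STING, the SR-717 group received 30 mg/kg of SR-717, an activator of STING, and the PBS group received buffer alone. Each group has 3 libraries of poly(A)-selected RNA, and nothing in the labels says that the libraries of a group come from separate mice, so p-values measure only the spread between these libraries. The compounds were given to the whole animal, and every group carried the fracture.

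Nitric oxide synthases turn arginine into nitric oxide and citrulline, and arginases split the same amino acid into ornithine and urea. Argininosuccinate synthase (Ass1) and argininosuccinate lyase (Asl) rebuild arginine from citrulline, the transporter CAT2 (Slc7a2) brings arginine into the cell, and ornithine decarboxylase (Odc1) makes putrescine, the first polyamine, from ornithine. In inflamed tissue Nos2 is switched on in macrophages by interferon-γ, TNF and microbial products, and Arg1 by cytokines that signal through Stat6, while Nos3 is the synthase of the vessel wall and Nos1 that of neurons and skeletal muscle fibres.

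The libraries held between 16987398 and 23272480 counts, and SR-717 replicate 1 and PBS replicate 1 stood apart from the rest. On the first principal component of all genes, which held 46.6% of the variance, they lay at 100.6 and 38.8 and the other libraries between -28.8 and -4.0. Osteoblast markers summed to 7106 to 17247 TPM (transcripts per 1000000, a level scaled for gene length) and chondrocyte markers to 64.7 to 6783 TPM, the lowest of each in SR-717 replicate 1, where the chondrocyte gene Col2a1 was at 17.1 TPM against 336 to 4317 TPM in the other libraries. Keratinocyte markers summed to 10.6 to 27.2 TPM and hepatocyte markers to 1.44 to 20.5 TPM. In such bulk RNA, fewer cells of a type and less RNA per cell cannot be told apart.

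Nos2, Arg1, Arg2 and Ass1 were the genes of the group that varied most. In each of the 3 treatment groups, all 4 were highest in the library numbered 1. Among the 13228 genes at a mean of 1 TPM or more, 15.1% were highest in the library numbered 1 of every group, and 3.93% were lowest there. Asl, Slc7a2, Odc1 and Nos3 stayed within a range of 1.46 to 1.83 times over the 9 libraries, and Nos1 within 6.9 times. The plot of levels by library shows these patterns.

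**Figure D1:**
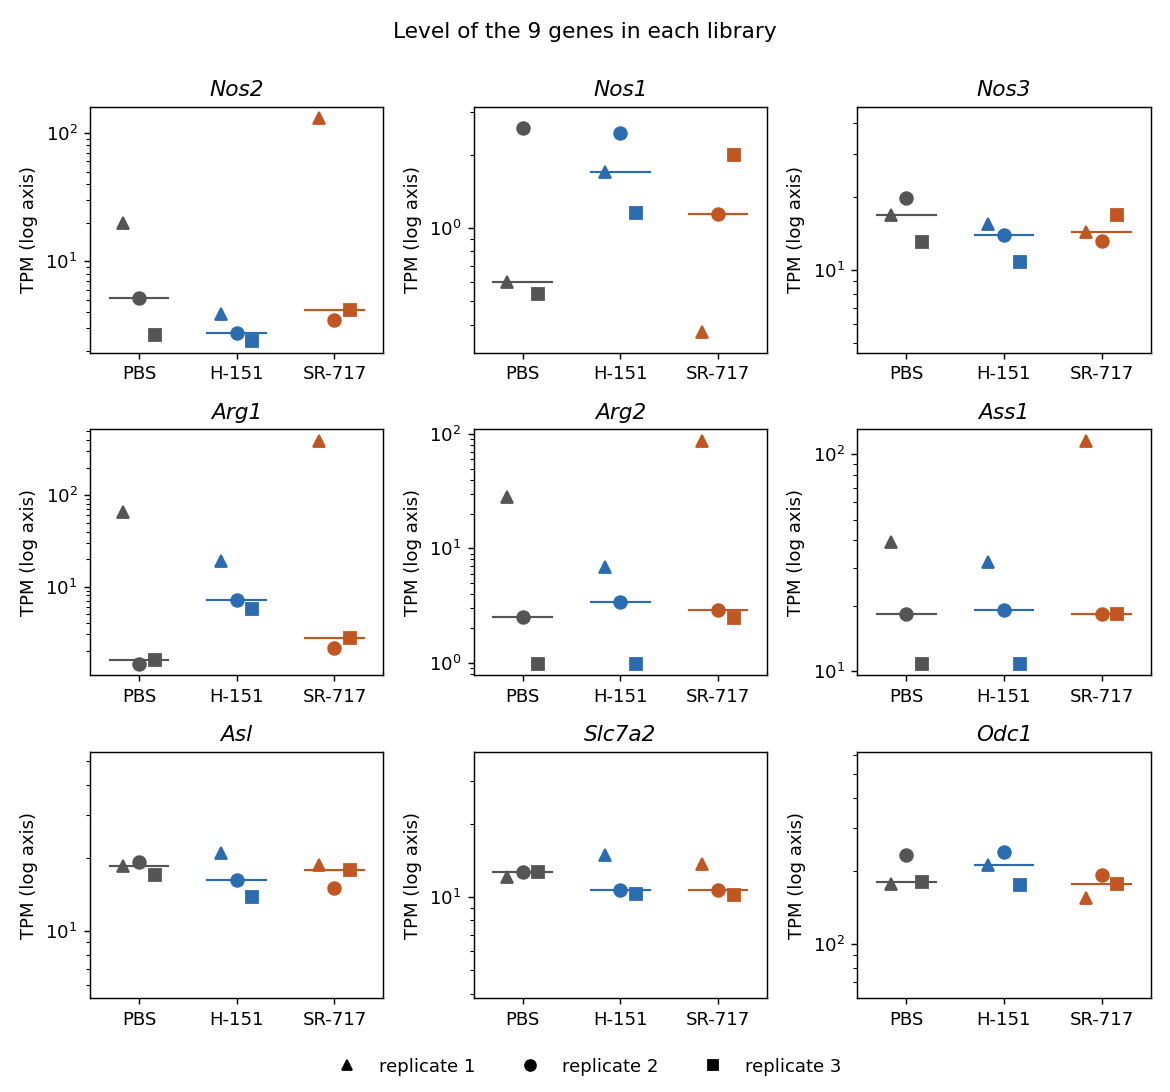
Level in TPM (log axis) of each of the 9 genes in the 3 libraries of the PBS, H-151 and SR-717 groups, with the marker shape giving the replicate number and a line at the group median. Nos2, Arg1, Arg2 and Ass1 are highest in replicate 1 of every group, with SR-717 replicate 1 at 131, 394, 87.8 and 116 TPM.

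Nos2, the inducible synthase (ENSMUSG00000020826, chr11:78920787-78960254 on GRCm38), was at 131, 3.45 and 4.16 TPM in SR-717 replicates 1, 2 and 3. In the PBS group it was at 19.7, 5.14 and 2.65 TPM, and in the H-151 group at 3.87, 2.76 and 2.36 TPM. SR-717 replicate 1 and PBS replicate 1 were far above the other 7 libraries, and the remaining SR-717 and PBS values lay side by side. The group means were 46.2 ± 73.4 TPM for SR-717, 9.15 ± 9.18 for PBS and 3.00 ± 0.782 for H-151 (SD, n = 3 each). By medians the order was PBS, SR-717 and H-151, at 5.14, 4.16 and 2.76 TPM, and the ranges of neighbours in this order overlapped.

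Against PBS, the log2 fold change of Nos2 in the SR-717 group was 2.56 (standard error 1.60). Without SR-717 replicate 1 it was -1.23, without PBS replicate 1 it was 3.87, and in replicates 2 and 3 alone it was 0.11 (standard error 0.32). The labels do not say what the replicate numbers stand for. A fit that took the number as a block put Nos2 at 1.07 (standard error 0.70). Against H-151 the log2 fold change was 4.19 in all libraries, 0.42 without SR-717 replicate 1 and 0.54 in replicates 2 and 3. The sign of the difference from PBS thus turned without SR-717 replicate 1, while that from H-151 did not.

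Nos2 was the only one of the 9 genes whose SR-717 and H-151 libraries did not overlap on the scale of the test, counts per library total, where 5.05% of genes did not overlap. On the TPM scale they did overlap, since H-151 replicate 1 at 3.87 TPM lay above SR-717 replicate 2 at 3.45 TPM. The expected counts behind these values were 148 and 168 reads, against 6356 in SR-717 replicate 1. In this comparison 0.756% of 14151 genes passed an unadjusted p of 0.05 with a 1.5-fold change and 0% an adjusted p of 0.05. These values are given as background only, since this contrast had chosen the genes.

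H-151 against PBS did not share the SR-717 libraries, but it shared the H-151 libraries with the contrast that had chosen Nos2. Low H-151 values could therefore have helped the choice, and the p-values of Nos2 here are background only. The log2 fold change of Nos2 was -1.65 (standard error 0.71, adjusted p = 1, edgeR), and the H-151 range of 2.36 to 3.87 TPM overlapped the PBS range of 2.65 to 19.7 TPM. In each of the 3 numbered pairs the H-151 library was below the PBS library on the TPM scale, and the block made the value -1.15 (standard error 0.49, adjusted p = 1). It was -0.33 without PBS replicate 1 and -0.44 (standard error 0.34) in replicates 2 and 3. Nos2 missed the unadjusted threshold of 0.05 in edgeR's test and passed it in DESeq2's and in edgeR's with no filter on low counts, and its adjusted p was 1 in all of them.

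Arg1, the type I arginase (ENSMUSG00000019987, chr10:24915221-24927484, minus strand), had the widest range of the 9 genes, 277 times from the lowest to the highest library. It was at 394, 2.13 and 2.73 TPM in SR-717 replicates 1, 2 and 3. In the PBS group it was at 65.9, 1.42 and 1.56 TPM, and in the H-151 group at 19.2, 7.09 and 5.69 TPM. Replicates 2 and 3 rested on few expected counts, 25 and 23 in PBS, 112 and 91 in H-151 and 38 and 37 in SR-717. The high values were again those of the libraries numbered 1, and among the libraries numbered 2 and 3 both H-151 values were above all of the others. The means were 133 ± 226 TPM for SR-717, 22.97 ± 37.2 for PBS and 10.7 ± 7.44 for H-151 (SD, n = 3 each), whereas the medians, at 2.73, 1.56 and 7.09 TPM, put H-151 first.

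Arg1 had a log2 fold change of 2.73 for SR-717 against PBS (standard error 2.34, adjusted p = 1, edgeR). It was -3.19 without SR-717 replicate 1 and 6.64 without PBS replicate 1. The block made it 1.62 (standard error 0.51, adjusted p = 0.999), which passed an unadjusted p of 0.05 and not an adjusted one. In each of the 3 numbered pairs the SR-717 library was above the PBS library on the TPM scale.

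In the H-151 group Arg1 had a log2 fold change against PBS of -1.12 (standard error 1.38, adjusted p = 1, edgeR), and its sign turned to 2.81 without PBS replicate 1. With the block it was 0.67 (standard error 0.93). In replicates 2 and 3 alone, a choice made after the values were seen, it was 2.19 (standard error 0.33, adjusted p = 1), past the unadjusted threshold. For SR-717 against H-151 it was 3.84 (standard error 2.01), and -2.06 without SR-717 replicate 1. No direction of Arg1 therefore held in every set of libraries.

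Arg2, the mitochondrial arginase (ENSMUSG00000021125, chr12:79130777-79156301), was at 87.8, 2.90 and 2.44 TPM in the SR-717 group, 28.3, 2.53 and 0.981 TPM in the PBS group and 6.92, 3.41 and 0.970 TPM in the H-151 group. Its lowest expected counts were 14 in PBS replicate 3 and 15 in H-151 replicate 3. It followed the order of Arg1 in the libraries numbered 1, and the groups overlapped. Its log2 fold change was 1.74 for SR-717 against PBS (standard error 1.75, adjusted p = 1, edgeR), -1.92 without SR-717 replicate 1 and 4.32 without PBS replicate 1. With the block it was 1.19 (standard error 0.34, adjusted p = 0.999), past the unadjusted threshold as Arg1 was. Between H-151 and PBS it was -1.52 (standard error 1.21, adjusted p = 1), and 1.06 without PBS replicate 1. Arg2 overlaps Vti1b on the opposite strand, and whether the authors' counting used the strand is not stated.

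**Figure D2:**
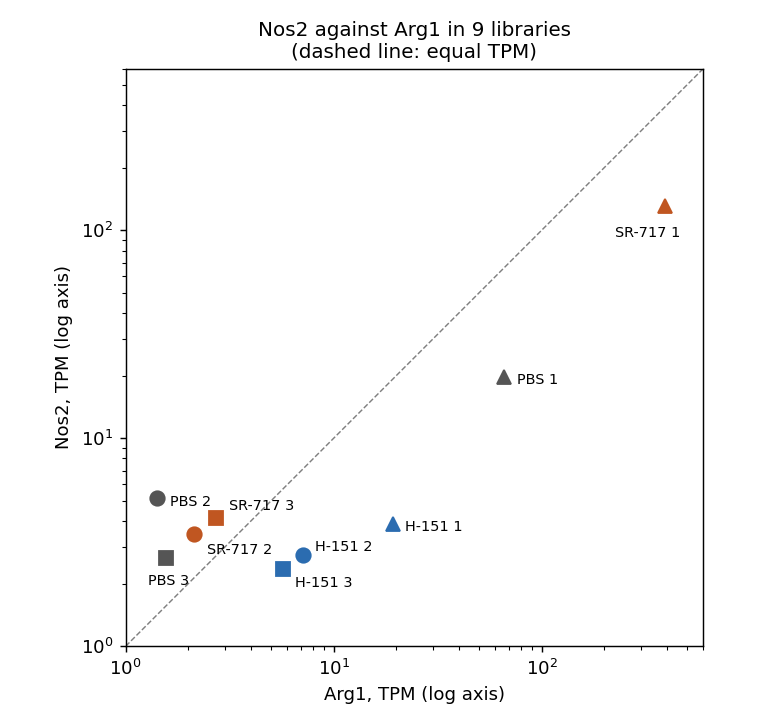
Nos2 level against Arg1 level in TPM (both log axes) for the 9 libraries, with a dashed line at equal levels. All 3 H-151 libraries and replicate 1 of the PBS and SR-717 groups lie on the Arg1 side, and replicates 2 and 3 of PBS and SR-717 lie on the Nos2 side.

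Since Nos2 and Arg1 use the same substrate, their levels were compared within each library on the TPM scale. Arg1 exceeded Nos2 in all 3 H-151 libraries, by 4.97, 2.57 and 2.41 times. It exceeded Nos2 in replicate 1 of PBS (3.35 times) and of SR-717 (3.01 times), and was below it in replicates 2 and 3, at 0.277 and 0.587 of the Nos2 level in PBS and 0.617 and 0.657 in SR-717. The mean log2 ratio of Nos2 to Arg1 was -1.65 ± 0.58 in the H-151 group, 0.29 ± 1.85 in the PBS group and -0.10 ± 1.29 in the SR-717 group (SD, n = 3 each). The log2 ratios of PBS replicate 1 and SR-717 replicate 1, at -1.75 and -1.59, lay within the H-151 range of -2.31 to -1.27, so the groups overlapped. The plot of Nos2 against Arg1 shows the libraries numbered 1 on one side with the H-151 group.

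Within the synthases, Nos3 held 71.9% to 80.4% of the summed TPM of the 3 genes in 7 of the 9 libraries. In PBS replicate 1 Nos2 held 53.0% and Nos3 45.4%, and in SR-717 replicate 1 Nos2 held 89.9% and Nos3 9.83%. Nos2 held 14.4% to 19.5% elsewhere. Within the arginases, Arg1 held 67.5% to 85.4% in the H-151 libraries, 36.0% to 70.0% in the PBS libraries and 42.4% to 81.8% in the SR-717 libraries. The change of leading synthase in those 2 libraries came from Nos2, since Nos3 itself was at 16.8 and 14.3 TPM there.

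**Figure D3:**
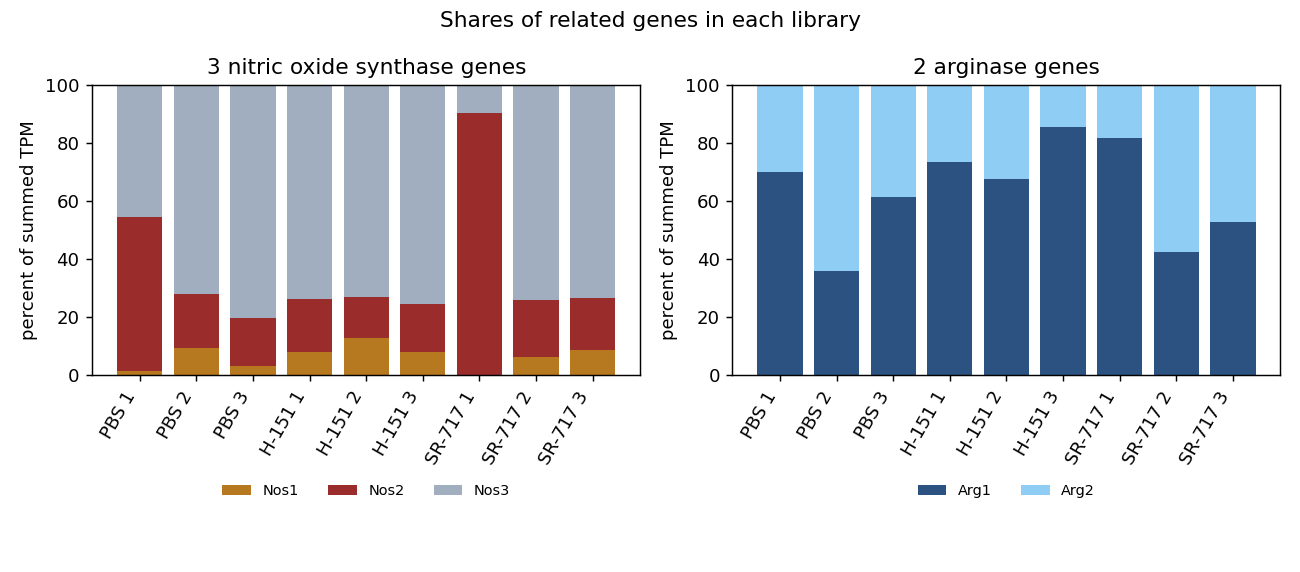
Share in percent of each gene in the summed TPM of the 3 nitric oxide synthases (left) and of the 2 arginases (right) in each of the 9 libraries. Nos3 leads in 7 libraries and Nos2 in PBS replicate 1 (53.0%) and SR-717 replicate 1 (89.9%).

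Nos3, the endothelial synthase (ENSMUSG00000028978, chr5:24364810-24384474), was at 16.8, 19.8 and 13.1 TPM in the PBS group, 15.5, 14.0 and 10.8 TPM in the H-151 group and 14.3, 13.1 and 16.8 TPM in the SR-717 group. The groups overlapped, and the highest library was 1.83 times the lowest. The log2 fold change was -0.06 for SR-717 against PBS (standard error 0.18, adjusted p = 1) and -0.29 for H-151 against PBS (standard error 0.16, adjusted p = 1, edgeR). The 8 endothelial markers summed to 528 to 727 TPM, with none at 0 in all libraries. The log2 level of Nos3 correlated with their summed level with r = 0.75 over 9 libraries and 0.89 without SR-717 replicate 1. This was not particular to Nos3. Without that library r was 0.88 for Asl, 0.72 for Ass1, 0.68 for Nos2 and 0.63 for Arg2. Over 9 libraries these values were 0.56, -0.15, -0.25 and -0.09. Nos3 overlaps Atg9b on the opposite strand, and its count was not whole in 6 libraries.

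Nos1, the neuronal synthase (ENSMUSG00000029361, chr5:117781032-117958840), was the lowest of the 9 genes by mean TPM, with 44 to 226 counts a library. Arg1 and Arg2 fell to fewer counts in single libraries, 23 and 14 in PBS replicate 3. It was at 0.602, 2.58 and 0.535 TPM in the PBS group, 1.69, 2.45 and 1.15 TPM in the H-151 group and 0.374, 1.14 and 1.99 TPM in the SR-717 group. The groups overlapped, and unlike Nos2 it was lowest in SR-717 replicate 1. Its log2 fold change was 0.52 for H-151 against PBS (standard error 0.48, adjusted p = 1, edgeR), or 1.30 without PBS replicate 2, and -0.03 for SR-717 against PBS (standard error 0.62, adjusted p = 1), where it was 0.74 without PBS replicate 2.

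Nos1 is known from the membrane of skeletal muscle fibres, and the 8 muscle markers, none at 0 in all libraries, differed widely in their summed level. They summed to 5919 to 25836 TPM in the PBS group, 16399 to 25340 TPM in the H-151 group and 11254 to 32293 TPM in the SR-717 group. On the log2 scale r between Nos1 and these markers was 0.77 over 9 libraries and 0.76 without SR-717 replicate 1. With the hepatocyte markers, at 1.44 to 20.5 TPM in sum, r was 0.56 and 0.92. These points share library, depth and base composition, and the part of adhering muscle in the level of Nos1 was not tested.

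**Figure D4:**
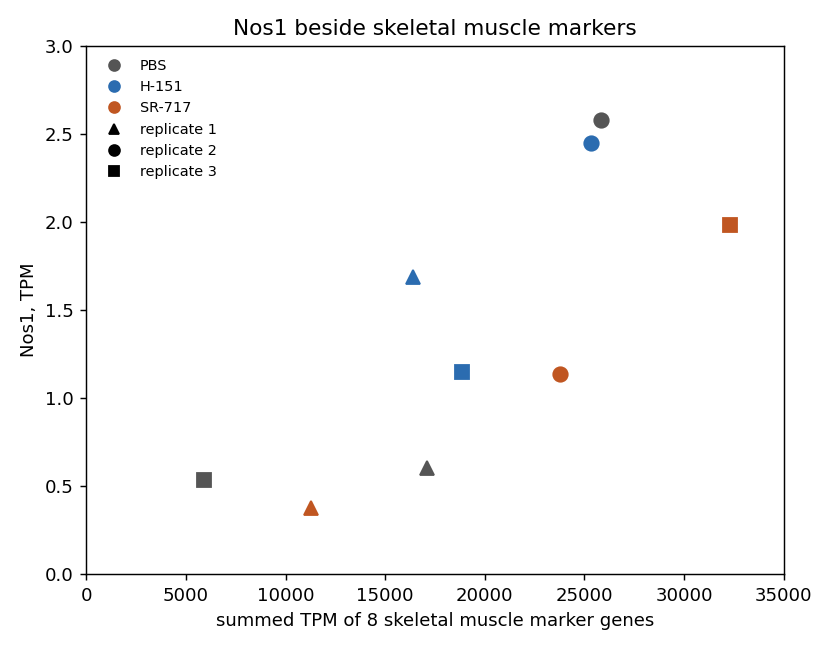
Level of Nos1 in TPM against the summed TPM of 8 skeletal muscle marker genes in the 9 libraries, with colour for the group and marker shape for the replicate number. PBS replicate 3, at 5919 TPM of markers, and SR-717 replicate 1, at 11254 TPM, have the lowest Nos1 levels, at 0.535 and 0.374 TPM.

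Ass1, argininosuccinate synthase (ENSMUSG00000076441, chr2:31470207-31520672), makes the intermediate from citrulline and aspartate and is the slower step of arginine recycling. It was at 116, 18.2 and 18.2 TPM in the SR-717 group, 39.2, 18.3 and 10.8 TPM in the PBS group and 31.9, 19.1 and 10.7 TPM in the H-151 group. The libraries numbered 1 were highest in each group, at 6.36, 2.70 and 2.14 times the mean of the other two, and the medians of 19.1, 18.3 and 18.2 TPM for H-151, PBS and SR-717 hardly differed. Its log2 fold change was 1.32 for SR-717 against PBS (standard error 0.89, adjusted p = 1, edgeR), -0.26 without SR-717 replicate 1 and 1.97 without PBS replicate 1. Between H-151 and PBS it was -0.16 (standard error 0.50, adjusted p = 1), with 0.50 without PBS replicate 1 and -0.53 without H-151 replicate 1.

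Asl, which releases arginine from that intermediate (ENSMUSG00000025533, chr5:130011258-130029247, minus strand), was at 18.5, 19.3 and 17.01 TPM in the PBS group, 20.9, 16.3 and 13.8 TPM in the H-151 group and 18.8, 15.1 and 17.9 TPM in the SR-717 group. No library stood out, and the log2 fold changes were 0.09 for SR-717 (standard error 0.18, adjusted p = 1) and -0.12 for H-151 (standard error 0.19, adjusted p = 1) against PBS. The ratio of Ass1 to Asl was 6.17 in SR-717 replicate 1, 2.13 in PBS replicate 1 and 1.53 in H-151 replicate 1, and between 0.635 and 1.21 in the other libraries. Over the 9 libraries Ass1 and Asl had r = 0.809 of log2 normalised counts, and 0.748 without SR-717 replicate 1, with the range of Asl 1.52 times and that of Ass1 10.8 times.

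Slc7a2, the arginine transporter CAT2 (ENSMUSG00000031596, chr8:40862396-40922308), was at 12.1, 12.6 and 12.7 TPM in the PBS group, 14.8, 10.6 and 10.3 TPM in the H-151 group and 13.7, 10.7 and 10.2 TPM in the SR-717 group. It had the narrowest range of the 9 genes, 1.46 times. Its log2 fold change against PBS was -0.02 for SR-717 (standard error 0.18, adjusted p = 1) and -0.04 for H-151 (standard error 0.14, adjusted p = 1, edgeR).

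Odc1, the enzyme of the first step of polyamine synthesis (ENSMUSG00000011179, chr12:17544794-17551505), was the highest of the 9 genes, ranking 687 of 22054 by mean TPM, where Nos1 ranked 12820. It was at 176, 232 and 180 TPM in the PBS group, 212, 240 and 175 TPM in the H-151 group and 154, 192 and 177 TPM in the SR-717 group. SR-717 replicate 1 was its lowest library, and the groups overlapped. The log2 fold change was -0.06 for SR-717 (standard error 0.16, adjusted p = 1) and 0.12 for H-151 (standard error 0.16, adjusted p = 1) against PBS. Per unit of summed arginase level, Odc1 stood at 0.319 in SR-717 replicate 1, 1.86 in PBS replicate 1 and 8.11 in H-151 replicate 1, and at 22.8 to 70.8 in the other 6 libraries. That spread came from the arginases and not from Odc1.

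RefSeq promoter entries on GRCm38.p6 were found for 3 of the 9 genes, Ass1, Odc1 and Nos1. Those of Ass1, which varied 10.8 times between libraries, and Odc1, which varied 1.56 times, are shown. That of Nos1, which varied 6.9 times, is not. The windows are the 170 bases from 250 to 81 before the RefSeq start, at chr2:31470020-31470189 and chr12:17544623-17544792 on the plus strand. Capitals mark a match in Ass1 to a loose κB-like pattern (GGGA, any 4 bases, then CC) and GC boxes (GGGCGG on either strand) in Odc1.
Ass1: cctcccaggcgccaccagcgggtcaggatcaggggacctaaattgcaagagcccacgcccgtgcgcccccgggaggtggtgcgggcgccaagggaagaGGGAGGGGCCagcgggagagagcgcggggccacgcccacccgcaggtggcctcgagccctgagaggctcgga
Odc1: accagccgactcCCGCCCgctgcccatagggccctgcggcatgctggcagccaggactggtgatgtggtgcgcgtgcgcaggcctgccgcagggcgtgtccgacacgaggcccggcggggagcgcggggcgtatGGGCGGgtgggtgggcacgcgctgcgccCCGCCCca

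The Ass1 window held 1 match to the loose κB-like pattern, which 11.4% of 32851 promoter windows of this length also held. The Odc1 window held none. The Odc1 window held 3 GC boxes, a motif present in 19.5% of windows, and the Ass1 window held none. No match to TTC and GAA 3 bases apart (the GAS element, in 4.97% of windows), CACGTG (in 3.38%) or TATAAA (in 8.04%) was found in either, both strands being searched. The windows were 73.5% and 77.1% G or C. The Nos1 window, not shown, was 56.5% G or C and held 0 matches to each of these motifs. It lies at chr5:117866589-117866758, inside the GENCODE span of Nos1, whereas the Ass1 and Odc1 windows lie before the spans of their genes. A match of letters is not a bound site.

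Against PBS, with Nos2 in SR-717 left aside, no adjusted p of the 9 genes was under 0.05 by edgeR under any alternative. None was by DESeq2 either, which gave no p for Arg1 and Arg2 in SR-717 against PBS and for Arg1 in H-151 against PBS. Of the 14070 genes tested for SR-717 against PBS, 0% passed, 97 had an unadjusted p under 0.05 and DESeq2 called 0. With p under 0.05 and a 1.5-fold change, 0.519% were called and 0 of the 8 tested genes of the group. Between the groups 3.98% of genes did not overlap, none of these 8 among them. The block raised the number called from 73 to 443 (3.15%), and Arg1 and Arg2 were among them.

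For H-151 against PBS, 0% of 14085 genes passed the adjusted threshold by edgeR, 91 had an unadjusted p under 0.05 and DESeq2 called 0. With the fold threshold 0.426% were called, 0 of the 9 genes among them, and 3.76% of genes did not overlap between the groups, again with none of the 9. The block gave 262 genes (1.86%) in place of 60, with 0 of the 9. For SR-717 against H-151 edgeR called no gene at an adjusted p of 0.05, 146 had an unadjusted p under 0.05 and DESeq2 called 1. The comparisons share libraries, so their values are not independent of each other.

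**Figure D5:**
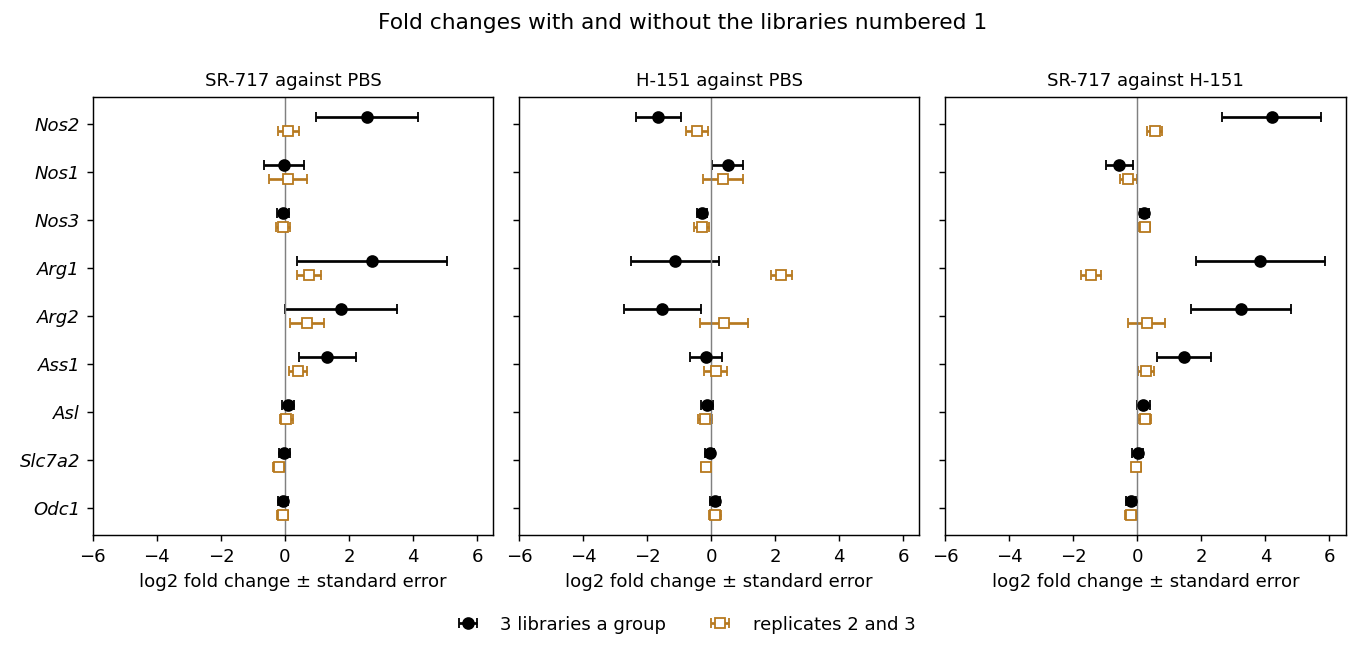
Log2 fold change with its standard error for the 9 genes in each comparison, from all 3 libraries a group (filled) and from replicates 2 and 3 alone (open). Nos2, Arg1, Arg2 and Ass1 have wide errors with all libraries and move toward 0 or across it in replicates 2 and 3, as Arg1 does for H-151 against PBS (-1.12 to 2.19), and Nos3, Asl, Slc7a2 and Odc1 stay within -0.29 to 0.23.

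Macrophage and neutrophil markers were also high in the libraries numbered 1. Of the 8 macrophage markers, 7 were highest there in every group, with summed levels of 5133 to 10685 TPM in the SR-717 group, 4057 to 7112 TPM in the PBS group and 4223 to 6506 TPM in the H-151 group. Of the 9 neutrophil markers, 4 were highest there in every group, with sums of 5519 to 29938 TPM, 1270 to 8377 TPM and 2513 to 9691 TPM in the same order. No marker of either list was at 0 in all libraries. Without the block 0 of the 9 neutrophil markers were called against PBS by unadjusted p and fold. With it, 8 were called higher in the SR-717 group, where 2.43% of all genes were, and 6 in the H-151 group, where 1.43% were, with 0 at an adjusted p of 0.05.

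The log2 level of Ass1 correlated with the summed macrophage markers with r = 1.00 over 9 libraries and 0.99 without SR-717 replicate 1. For Arg2 these values were 0.98 and 0.96, for Nos2 0.92 and 0.76, and for Arg1 0.90 and 0.75. With the neutrophil markers r was 0.89 for Ass1, 0.86 for Arg2 and 0.74 for both Nos2 and Arg1, and 0.82, 0.74, 0.44 and 0.49 without SR-717 replicate 1. With the chondrocyte markers r was -0.80 for Ass1, -0.81 for Arg2, -0.92 for Nos2 and -0.85 for Arg1. Leaving out SR-717 replicate 1 gave -0.34, -0.50, -0.66 and -0.62. With the osteoblast markers r was -0.85 for Ass1 and for Arg2, -0.86 for Nos2 and -0.89 for Arg1. Without SR-717 replicate 1 these were -0.51, -0.63, -0.45 and -0.73. With the endothelial markers r was -0.15, -0.09, -0.25 and -0.29 in the same order, and 0.72, 0.63, 0.68 and 0.28 without SR-717 replicate 1. The part of these cells in the levels of the 4 genes was not tested, and all points share library, depth and base composition.

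Among the 9 genes themselves, Arg2 and Ass1 varied most alike, with r = 0.977 of log2 normalised counts over 9 libraries and 0.972 without SR-717 replicate 1. Nos2 and Arg1 had r = 0.873 and 0.647, and Nos2 and Arg2 0.931 and 0.853. Of 13508 genes compared, those most like Nos2 were Arl8a (r = 0.993), Tnf (0.9903) and Marcksl1 (0.99), and Tnf and Arl8a were again in the first 3 without SR-717 replicate 1, at 0.980 and 0.974 after Nectin2 (0.984). Tnf, a cytokine known to induce Nos2, was at 82.3, 3.89 and 4.26 TPM in the SR-717 group, 22.7, 4.05 and 2.32 TPM in the PBS group and 4.92, 2.57 and 2.31 TPM in the H-151 group.

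Arg2 was most like Slpi (0.998), Ifitm1 (0.994) and Gpr35 (0.994), with Slpi and Ifitm1 again in its first 3 without SR-717 replicate 1. Ass1 was most like C5ar1 (0.996), Csf2rb (0.996) and Zfp36 (0.995), of which C5ar1, the receptor of a complement fragment, was again named. For Arg1 the first 3, Entpd1 (0.982), Mphosph10 (0.979) and Cyp7b1 (0.978), gave way to Rnf150, Vcan and Phf3, and no gene was in both lists. Nos3 kept Map1s (0.965), whereas the lists of Nos1, Asl, Slc7a2 and Odc1 shared no gene with and without that library.

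Of the 9 known inducers of Nos2, 7 were tested, and Ifng and Il6 did not pass the filter on low counts. Their median log2 fold change was 0.92 for SR-717 against PBS, against 0.014 over all genes, and -0.01 in replicates 2 and 3. For H-151 against PBS it was -0.36, against -0.025 over all genes, and for SR-717 against H-151 it was 1.17, against 0.019 over all genes, and 0.11 in replicates 2 and 3. None passed p and fold against PBS, and Tnf did so against H-151, in the contrast used for the choice. Il1b, the highest of them, was at 1660, 30.1 and 17.7 TPM in the SR-717 group, 271, 12.4 and 5.46 TPM in the PBS group and 75.5, 25.7 and 7.49 TPM in the H-151 group, high in the libraries numbered 1 as Nos2 was. It had a log2 fold change of 2.76 for SR-717 against PBS (standard error 2.15). It was called with the block alone, where 2.43% of all genes were called higher.

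Of the 7 known inducers of Arg1, 4 were tested, and the cytokine gene Il13 was at 0 in all libraries. None passed p and fold in a comparison. Cebpb, a transcription factor that acts on Arg1, was at 356, 52.3 and 57.5 TPM in the SR-717 group, 205, 67.9 and 31.7 TPM in the PBS group and 75.9, 65.2 and 40.3 TPM in the H-151 group. Against PBS the log2 fold change of Cebpb was 0.78 for SR-717 (standard error 0.99) and -0.74 for H-151 (standard error 0.61). Of the 6 genes of alternative macrophage activation, a state in which Arg1 is typically expressed, Cd163 passed p and fold for H-151 against PBS. Its log2 fold change was 1.35 (standard error 0.56), and 0.426% of all genes tested passed there. Cd163, a scavenger receptor, was at 1.18, 1.53 and 0.607 TPM in the H-151 group and 0.196, 0.799 and 0.293 TPM in the PBS group, and these ranges overlapped. Retnla had the lowest log2 fold change of the list, -1.25 for SR-717 against PBS (standard error 0.57). Its SR-717 libraries, at 0.432, 1.11 and 2.01 TPM, lay below those of PBS at 2.18 to 4.19 TPM, as 3.98% of genes lay apart, on 3 to 11 counts against 13 to 23. With the block Chil3 was called higher in SR-717, where 2.43% of all genes were. Cd163, Chil3 and Mgl2 were called higher in H-151, where 1.43% of all genes were. None of these passed the adjusted threshold.

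Among other genes of arginine use, none of the 4 tested arginine transporter genes, 6 tetrahydrobiopterin cofactor genes and 11 synthase regulators passed p and fold in any comparison, and the median log2 fold changes of these lists lay between -0.12 and 0.13. Gch1, which makes the cofactor that synthases need, had a log2 fold change of 0.40 for SR-717 against PBS (standard error 0.53), and Gchfr, which restrains Gch1, -0.67 (standard error 0.52). Slc3a2, the highest of the transporter genes at a mean of 126 TPM, had 0.18 (standard error 0.36). Among the regulators, Nos1ap, an adaptor of Nos1, had 0.40 (standard error 0.40) and Ddah1, which clears a natural synthase inhibitor, -0.47 (standard error 0.30). Of the 5 tested genes of nitric oxide reception, Prkg2, a cGMP-dependent kinase of growth cartilage, had the lowest value, -0.87 for SR-717 against PBS (standard error 0.62). It was called lower with the block alone, where 3.15% of all genes were called in either direction.

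None of the 8 tested genes of the urea cycle, ornithine, proline and creatine and none of the 12 polyamine genes passed p and fold in any comparison without the block. The urea cycle genes Otc and Cps1, which belong to liver and gut, were at or near 0, at most 0.037 and 0.124 TPM. Gatm, which passes the amidine group of arginine on toward creatine, was at 15.4, 6.59 and 4.38 TPM in the SR-717 group and 6.43, 4.64 and 3.48 TPM in the PBS group. Its log2 fold change without the block was 1.00 (standard error 0.54). Gatm was called higher with the block alone, where 2.43% of all genes were. Smox, which oxidises spermine, was at 144 TPM in SR-717 replicate 1 and 57.5 to 77.1 TPM in the other libraries, with 0.44 (standard error 0.39) for SR-717 against PBS. Srm, spermidine synthase, had -0.38 (standard error 0.27), and Oaz1, which restrains Odc1 and was the highest polyamine gene, lay between 720 and 1196 TPM.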

How the data were processed

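Libraries were grouped by their treatment label. The authors deposited expected counts, estimates that need not be whole (8.91% were not), and TPM for 22054 genes in 1 table, and 0 of its per-sample columns were left unused. The submitters' processing notes name mm10, and the aligner, the counter and the use of strand are not given in the sources used here. The extraction text in the labels speaks of cell lines, and the paper's methods of callus.

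Expected counts, taken as counts in the design, were rounded. Groups were compared on their 6 libraries by glmQLFit and glmQLFTest of edgeR 4.0.16 (R 4.3.3) after TMM normalization and filterByExpr (a count of 10, a total of 15), and p was adjusted over all genes tested by the method of Benjamini and Hochberg. All 9 genes passed the filter. Standard errors were derived from the F statistic. The tests were checked on simulated data with independent noise in each library. No simulated library was set apart as a whole as SR-717 replicate 1 was, so the check does not cover that feature. Levels, shares and ratios of different genes used TPM only. A library total of 16987398 to 23272480 counts sets the precision, and 3 libraries a group limit it further.

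The genes, the lists and the tests were chosen with earlier results of these data known. Genes named besides the 9 were those of each list past p and fold, otherwise those with the largest and smallest log2 fold change, the highest gene of each list, and the 3 genes with the highest Pearson r to each of the 9. Col2a1, Il6, Ifng, Il13, Otc and Cps1 were named after their values were seen. Marker lists of neutrophils, macrophages, endothelium, skeletal muscle, keratinocytes, hepatocytes, osteoblasts and chondrocytes were summed in TPM, and 72 correlations with the 9 genes were computed.

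Deviations from group means of same-numbered libraries correlated with r of 0.650, 0.341 and 0.139 between SR-717 and PBS, and 0.305, 0.485 and 0.503 between H-151 and PBS. The main fits used no pairing, and a block on the replicate number served only as an alternative. The block rested on these correlations of measured values. The largest, 0.650, was between SR-717 replicate 1 and PBS replicate 1, the libraries that stood apart from the rest. Whether same-numbered libraries form true pairs is not known. Alternatives were DESeq2 size factors, DESeq2 1.42.0, the replicate block, a single fit of the 9 libraries, a minimum mean count of 50 or no filter at all, leaving out each library in turn, and, chosen after seeing the data, replicates 2 and 3 alone. Positions are those of GENCODE on GRCm38, matched by Ensembl identifier.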

Additional observations from a re-analysis of the deposited data

How the results depend on the processing

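No gene passed an adjusted p of 0.05 in any comparison under any alternative except 1 in SR-717 against H-151 by DESeq2. The number of genes past an unadjusted p of 0.05 with a 1.5-fold change depended on the setting, and the cause was not tested. It was 73 for SR-717 against PBS, 138 by DESeq2, 194 with no filter, 37 at a mean count of 50 or more, 176 with all 9 libraries in 1 fit, 443 with the replicate block and 118 in replicates 2 and 3. For H-151 against PBS it was 60, 127 with no filter, 28 at a mean count of 50 or more and 262 with the replicate block. For SR-717 against H-151 it was 107, 209 by DESeq2, 223 with no filter and 61 at a mean count of 50 or more. With all 9 libraries it was 171 and with the replicate block 143. Same-numbered libraries of SR-717 and H-151 deviated with r of 0.342, 0.062 and 0.079, and whether they form pairs is not known. Leaving out 1 library gave 95 to 319 (highest without SR-717 replicate 3), 43 to 698 (lowest without H-151 replicate 2, highest without PBS replicate 2) and 64 to 661 (lowest without H-151 replicate 2, highest without SR-717 replicate 3) in the same order.

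Of 189 log2 fold changes of the 9 genes under the alternatives other than leaving out a library, 8 turned sign. The sign turned for Nos1 in SR-717 against PBS, to 0.03 with the block and 0.09 in replicates 2 and 3. In H-151 against PBS it turned for Arg1, to 0.67 with the block and 2.19 in replicates 2 and 3, and in replicates 2 and 3 for Arg2, to 0.40, and Ass1, to 0.14. In SR-717 against H-151 it turned in replicates 2 and 3 for Arg1, to -1.44, and Slc7a2, to -0.04, while Nos2 and Arg2 kept theirs at 0.54 and 0.29, and with the block Nos2 was at 1.96 and Arg1 at 0.33. The block also moved Arg1 and Arg2 in SR-717 against PBS past the unadjusted threshold and changed no other call of the tested genes against PBS.

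With 1 library left out, log2 fold changes for SR-717 against PBS ranged from -0.31 to 0.74 for Nos1, -0.17 to 0.04 for Nos3, -3.19 to 6.64 for Arg1, -1.92 to 4.32 for Arg2, -0.26 to 1.97 for Ass1, -0.02 to 0.17 for Asl, -0.16 to 0.07 for Slc7a2 and -0.14 to 0.03 for Odc1. For H-151 against PBS they ranged from -1.75 to 2.81 for Arg1, -2.21 to 1.06 for Arg2, -0.53 to 0.50 for Ass1, -0.26 to 0.01 for Asl and -0.13 to 0.03 for Slc7a2. Against PBS the standard errors of Nos2 and Arg1 were between 0.71 and 2.34, which limits what 3 libraries a group can show for them.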
